A study of Mus musculus with 34 samples.

Results

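The 9 genes described here mark hepatic stellate cells and the myofibroblasts they turn into: Acta2, Tagln, Des, Vim, Cygb, Reln, Hand2, Cdh11 and Thy1. They were taken as a list that was chosen with earlier results of these data known. Each was read through the probe set that carries only its symbol and has the highest mean signal. All 9 were among the 13099 genes tested. RNA came from the liver of C57/B6 wild-type mice and of Pdgf-c transgenic mice, which carry a transgene for platelet-derived growth factor C. The 7 groups were wild-type liver at week 20 (n = 5) and week 48 (n = 4), transgenic liver on the basal diet at week 20 (n = 5) and week 48 (n = 5), tumours of transgenic mice at week 48 (n = 5), and transgenic liver on a diet with 0.06% peretinoin at week 20 (n = 5) and week 48 (n = 5). Peretinoin is an acyclic retinoid, and the diets began after weaning at week 4. Week 20 was the age for hepatic fibrosis and week 48 the age for tumours. Wild-type arrays on peretinoin were not analysed here, and the labels used here give no promoter or cell type for the transgene, and leave unstated if any tumour shares its mouse with one of the livers.

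Stellate cells lie between hepatocytes and the sinusoidal endothelium and store vitamin A as retinyl esters. In an injured liver they lose these stores, divide, take on contractile fibres and secrete collagen, and platelet-derived growth factors are among their main mitogens. Portal fibroblasts are a further source of myofibroblasts, and vascular smooth muscle shares much of their contractile machinery. The markers therefore differ in what they report: Acta2 and Tagln belong to the actin fibres, Des and Vim to the intermediate filaments, Cygb, Reln and Hand2 to the stellate cell lineage, and Cdh11 and Thy1 to the surface of activated fibroblasts.

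Signals are on the linear scale of the deposited array values, on which the median probe set of an array lay between 71.5 and 95.7. Hepatocyte genes were high on every array, with Alb (albumin) between 19640.7 and 41903.6 and Hnf4a, a hepatocyte transcription factor, between 7391.2 and 15122.0. The signal of Pdgfc itself at week 20 was between 258.9 and 411.7 on wild-type arrays and between 210.0 and 386.3 on transgenic arrays. At week 48 these bounds were 458.2 and 518.9, and 517.2 and 1218.8. Its groups overlapped at both ages, and since the construct is not given, whether this probe set reads the transgene is not known here. Genotypes are therefore as labelled. Of the 34 arrays, 5 carried transcripts of another tissue, counted as a mean log2 signal of 20 skeletal muscle genes or 10 pancreatic acinar genes at least 3 units above the median of all arrays. Muscle transcripts were high on wild-type week 48 replicate 4, transgenic week 48 replicate 4, peretinoin week 20 replicate 5 and peretinoin week 48 replicate 1. Acinar transcripts were high on transgenic week 20 replicate 5 and again on transgenic week 48 replicate 4. Transgenic week 48 replicate 1 and peretinoin week 20 replicate 3 had muscle means 1.93 and 2.77 units above the median and were kept. Calls of a marker that change without these 5 arrays with other tissue are given both ways.

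Promoters of Acta2, Des and Myl9 are shown as a description of sequence, Myl9 being picked as the gene most like Acta2 in these data. With all arrays kept, Acta2 moved with Myl9, the regulatory light chain of smooth muscle myosin, while Des followed skeletal muscle. For Des this rested on the arrays with other tissue. Over the 29 arrays left without them, Pearson's r of Des was 0.245 with skeletal muscle genes and 0.497 with smooth muscle contractile genes. For Acta2 these values were 0.443 and 0.608. Each sequence is the 250 bases before the annotated start, read 5′ to 3′ on the gene's strand, from RefSeq on GRCm38.p6. They are chr19:34255374-34255623 on the minus strand for Acta2, chr2:156775214-156775463 on the plus strand for Myl9 and chr1:75360042-75360291 on the plus strand for Des. Capitals mark CArG boxes, the element bound by serum response factor in smooth muscle genes, and CAGCTG, an E-box form.
Acta2: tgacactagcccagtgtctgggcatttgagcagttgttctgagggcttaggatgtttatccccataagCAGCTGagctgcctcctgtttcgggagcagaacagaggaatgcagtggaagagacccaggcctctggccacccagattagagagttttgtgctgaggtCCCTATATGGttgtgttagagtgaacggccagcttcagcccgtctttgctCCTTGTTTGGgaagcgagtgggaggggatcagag
Myl9: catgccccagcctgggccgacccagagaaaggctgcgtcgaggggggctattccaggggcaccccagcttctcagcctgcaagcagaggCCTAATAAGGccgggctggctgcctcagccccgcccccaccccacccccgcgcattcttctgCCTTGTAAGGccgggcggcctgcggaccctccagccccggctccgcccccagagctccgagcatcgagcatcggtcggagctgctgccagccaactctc
Des: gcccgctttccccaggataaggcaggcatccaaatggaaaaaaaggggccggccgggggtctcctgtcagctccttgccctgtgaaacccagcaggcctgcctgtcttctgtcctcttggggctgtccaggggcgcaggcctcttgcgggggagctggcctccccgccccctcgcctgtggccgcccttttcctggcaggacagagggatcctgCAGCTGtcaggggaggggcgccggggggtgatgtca

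The Acta2 window held CArG boxes 84 and 34 bases before the start, CCCTATATGG and CCTTGTTTGG, each with 1 mismatch to the consensus, and CAGCTG 182 bases before it. In Myl9 there was an exact box at 161 bases, CCTAATAAGG, and one with 1 mismatch at 99 bases, CCTTGTAAGG. The Des window had no such box and had CAGCTG at 36 bases. Both strands were searched over 32851 promoters of this length. An exact box was found in 1.47% of them, a box with up to 1 mismatch in 8.59%, at least 2 such boxes in 0.67%, and CAGCTG, which overlapped no box in these windows, in 13%. Of the 9 markers, 5 had a promoter sequence (Acta2, Des, Vim, Reln and Hand2), and 1 of the 5 held a CArG box. These matches describe the letters of the windows and no binding was measured. Any relation of these sequences to the levels on single arrays was not tested.

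Transgenic liver at week 20 had more RNA of 7 of the 9 markers than wild-type liver, against 15.8% of all genes tested that rose. Cdh11 rose by 9.57-fold, Cygb by 6.11-fold, Hand2 by 5.20-fold, Vim by 4.40-fold, Tagln by 3.0-fold, Reln by 2.58-fold and Thy1 by 2.17-fold. The order at the top depends on the offset added to the signal, since after adding 64 instead of 16 Cygb stood at 2.41, Hand2 at 2.21 and Cdh11 at 2.18 on the log2 scale. Acta2 and Des did not pass the test. Folds are on the log2(signal + 16) scale, tests are limma's over all 13099 genes, and calls were made where the Benjamini-Hochberg adjusted p was under 0.05. The labels do not say whether replicates are separate mice, so a p-value measures only the spread between these samples. In whole liver, more cells of a type and more RNA per cell cannot be told apart. The arrays of the groups did not overlap for any of the 9 markers, all higher in transgenic liver, while 11.5% of all genes were higher without overlap. The median log2 change was 1.58 for the markers and 0.06 for all genes.

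**Figure D1:**
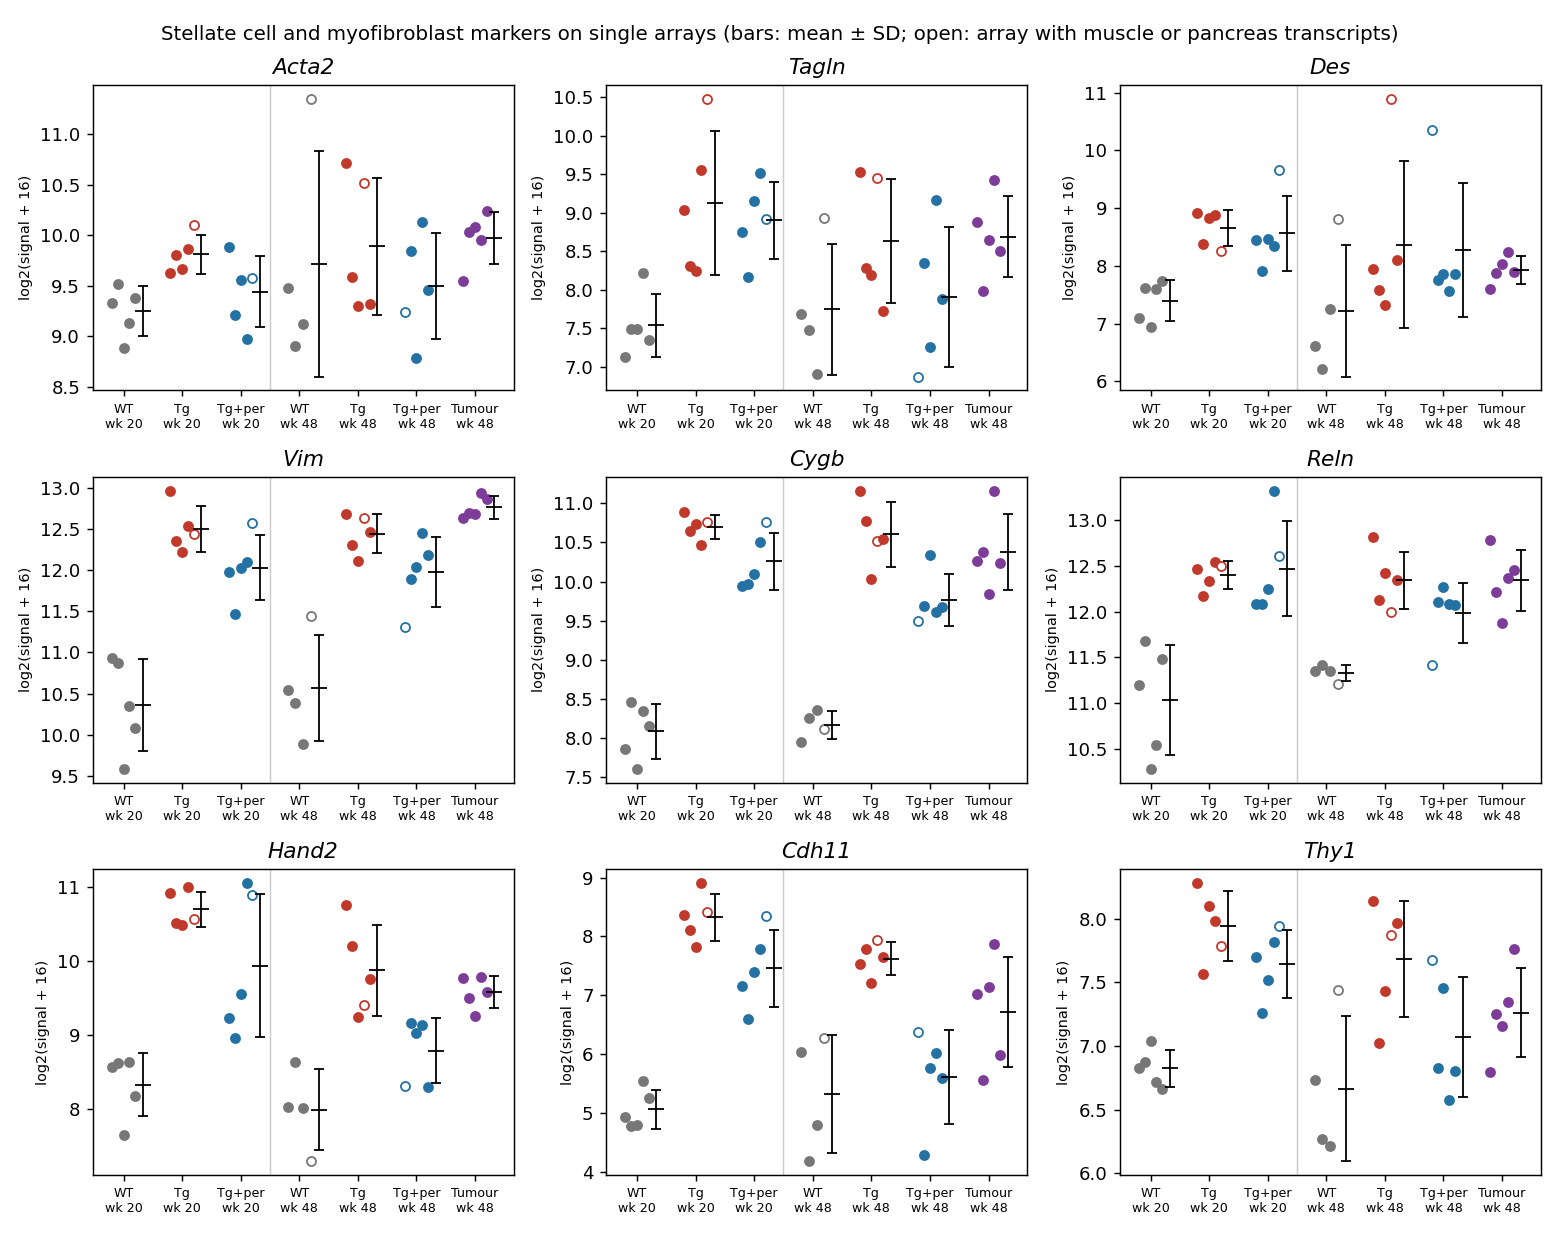
Signals of the 9 markers as log2(signal + 16) on each of 34 arrays, by group (WT wild type, Tg transgenic, Tg+per transgenic on peretinoin, wk week). Points are arrays, open points are the 5 arrays with muscle or pancreas transcripts, and bars are the mean ± SD. Wild-type points lie lowest for Cygb at both ages, and the open points stand out for Des at week 48.

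Acta2 encodes the smooth muscle actin that defines the contractile myofibroblast. In wild-type liver at week 20 its signals were 625.6, 719.5, 456.0, 546.5 and 649.6, and in transgenic liver 774.2, 878.0, 794.4, 917.0 and 1084.3. All 5 transgenic arrays were above all 5 wild-type arrays, the lowest by a small margin. The means were 599 ± 101 (SD, n = 5) and 890 ± 124 (SD, n = 5). The log2 change of 0.56 ± 0.32 (SE) missed the threshold in the fit of all groups (limma adjusted p = 0.207). The name of its probe set ends in a suffix (_s_at) used for probes that can match related transcripts. In a fit of these 10 arrays alone, whose spread leaves out the wide week 48 groups, it passed (limma adjusted p = 0.0122). A second Acta2 probe set, with a mean signal of 48.1, gave -0.26 and did not pass.

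At week 48 the signals of Acta2 were 699.4, 464.2, 543.2 and 2597.5 in wild-type liver and 1670.5, 753.2, 613.3, 1454.2 and 625.5 in transgenic liver. The highest of all 34 arrays was thus a wild-type one, replicate 4, an array with muscle transcripts. On it Acta1, the skeletal muscle actin, had a signal of 9473.0, and the smooth muscle genes Myh11 (myosin heavy chain) and Actg2 (enteric actin) had 215.1 and 516.6. On the 28 arrays whose muscle mean lay under 1 log2 unit above the median, Acta1 did not exceed 215.8, Myh11 132.0 and Actg2 81.5. The change between genotypes was 0.17 ± 0.34 (limma adjusted p = 0.765), and 0.56 (adjusted p = 0.188) without the 5 arrays. That second fit kept transgenic replicate 1, the highest transgenic array, on which Acta1 had a signal of 1410.5. On the other arrays with muscle transcripts by the rule above, Acta2 lay inside the range of the other arrays of the group. Transgenic week 48 replicate 4 had Acta1 at 24596.5 and Acta2 at 1454.2, below replicate 1 only. Peretinoin week 48 replicate 1 had Acta1 at 24895.7 and Acta2 at 590.3, and peretinoin week 20 replicate 5 had 15871.1 and 746.0. How much of the Acta2 signal came from muscle was not tested.

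Tagln encodes transgelin, an actin-binding protein of smooth muscle and myofibroblasts. Its signals at week 20 were 124.5, 164.3, 164.8, 282.9 and 146.8 in wild-type and 509.9, 300.1, 287.8, 735.1 and 1408.8 in transgenic liver. The groups were apart by 4.9 units, between wild-type replicate 4 and transgenic replicate 3, and the highest array was the one with acinar transcripts. Tagln rose by 1.58 ± 0.43 (SE) on the log2 scale (limma adjusted p = 0.00672). At week 48 the signals were 189.4, 163.2, 104.2 and 470.0 in wild-type and 720.3, 294.4, 276.4, 681.6 and 196.2 in transgenic liver. The wild-type array with muscle transcripts lay above 3 of the 5 transgenic ones, and the change of 0.88 ± 0.45 did not pass (limma adjusted p = 0.173).

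Des encodes desmin, the intermediate filament of muscle that stellate cells also carry. At week 20 its signals were 121.3, 179.2, 106.2, 178.5 and 198.2 in wild-type and 465.8, 318.5, 436.6, 458.2 and 290.6 in transgenic liver. The lowest transgenic array, the one with acinar transcripts, was still above the highest wild-type array. The means were 157 ± 40.3 (SD, n = 5) and 394 ± 82.9 (SD, n = 5). The change of 1.26 ± 0.51 missed the threshold with the spread of all 7 groups (limma adjusted p = 0.0729). Without the 5 arrays with other tissue it passed at 1.35 (limma adjusted p = 1.53e-05), and in the 10 arrays alone at adjusted p = 0.000625. A second Des probe set, with a mean signal of 46.7, gave 0.33 at week 20 and 0.19 at week 48 with all arrays. It passed at neither age.

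Among wild-type arrays at week 48 Des gave 82.4, 58.2, 136.3 and 433.9, and among transgenic arrays 229.8, 175.2, 144.7, 1886.8 and 258.1. The highest array of each group was the one with muscle transcripts, and without them the ranges were 58.2 to 136.3 and 144.7 to 258.1, with no overlap. The change was 1.14 ± 0.54 with all arrays (limma adjusted p = 0.137). It passed without the 5 arrays, at 1.04 (adjusted p = 0.00200). Leaving out wild-type replicate 4 alone gave 1.67 (limma adjusted p = 0.0300), but this kept the transgenic array with muscle transcripts, at 1886.8. Without the 5 arrays, 8 of the 9 markers rose at week 20 and 7 of 9 at week 48, Des being the added one at each age, among 23.6% and 17.8% of all genes called in either direction.

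**Figure D2:**
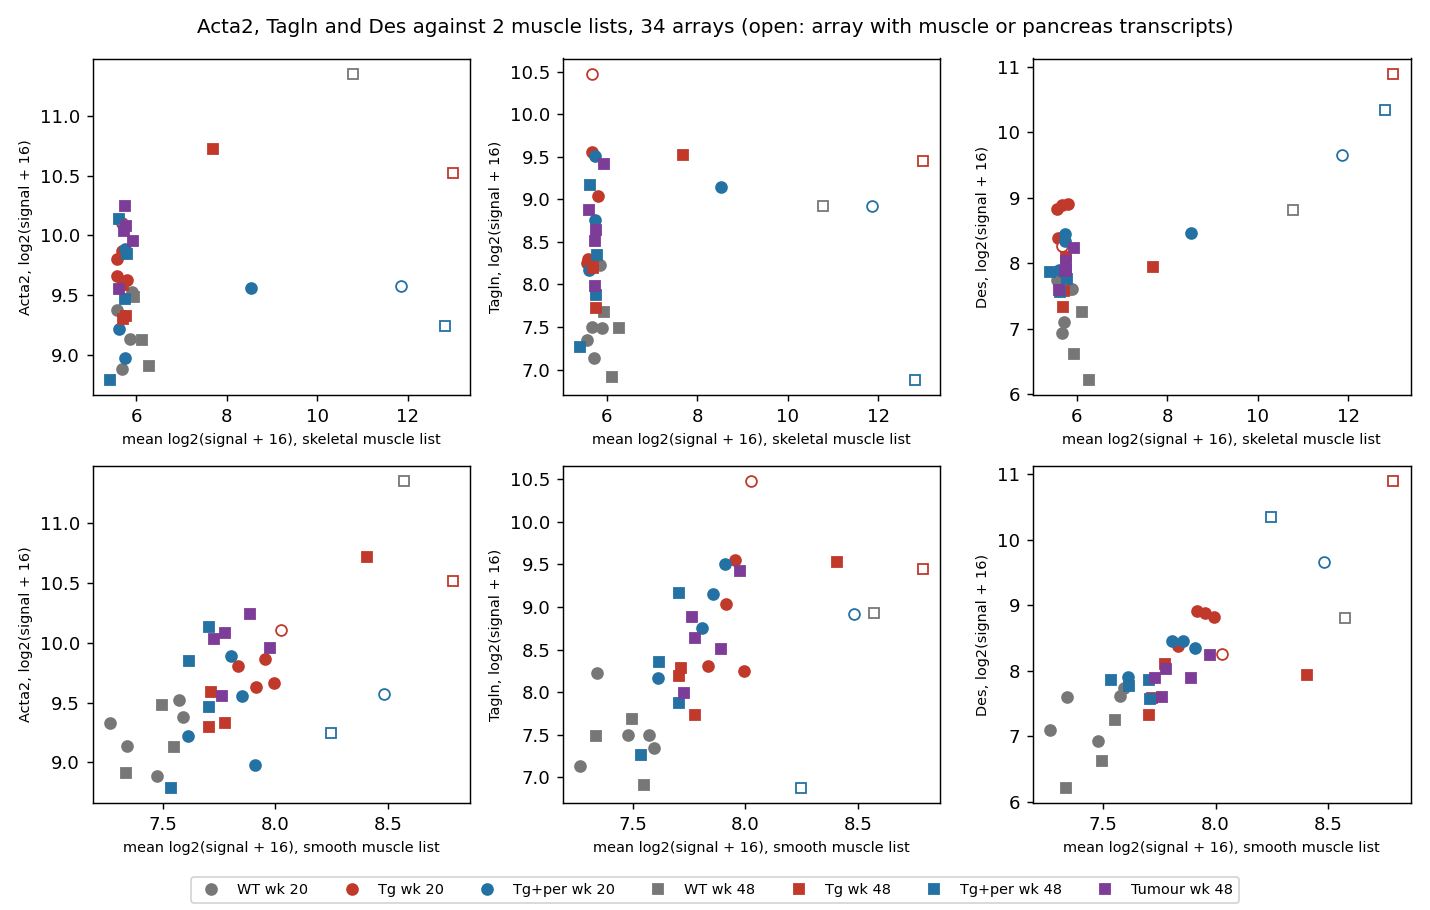
Acta2, Tagln and Des (columns, log2(signal + 16)) against the mean log2(signal + 16) of the skeletal muscle list (upper row) and of the smooth muscle list (lower row) on 34 arrays, coloured by group, with the 5 arrays with muscle or pancreas transcripts open. Des is highest on the 3 arrays with the highest skeletal muscle means, between 790.9 and 1886.8 in signal, while Acta2 on peretinoin week 48 replicate 1 stays at 590.3.

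The 29 arrays without other tissue still varied in muscle transcripts, and the deviations of the 3 genes from their group means were set against those of 2 lists, 6 relations in all, with permutation within groups. The smooth muscle list holds 17 genes, most of them contractile, and none of the markers. On peretinoin week 48 replicate 1, rich in skeletal muscle transcripts, its mean was 8.25 against a group median of 7.71. Myh11, Actg2 and Myl9 there gave 41.6, 45.0 and 179.1. Their medians on the 28 arrays with low muscle means were higher, at 63.85, 51.4 and 244.6. The 2 lists are therefore not separate readings of smooth and skeletal muscle. Over the 29 arrays, Acta2 followed the smooth muscle list with Pearson's r = 0.608 (permutation p = 0.0242, adjusted 0.0484) and Spearman's rho = 0.493 (p = 0.0244). For Tagln r was 0.548 (permutation p = 0.0118, adjusted 0.0484) and rho 0.428 (p = 0.0306), and for Des r was 0.497 (permutation p = 0.0179, adjusted 0.0484) and rho 0.516 (p = 0.0165). Without the 2 arrays farthest from the median, r was 0.345 for Acta2, 0.414 for Tagln and 0.504 for Des. With the skeletal muscle list r was 0.443 (adjusted permutation p = 0.107), 0.403 (0.107) and 0.245 (0.238) for Acta2, Tagln and Des, and 0.274, 0.303 and 0.176 without the 2 farthest arrays. Spearman's rho of Tagln with that list was 0.500 (permutation p = 0.00947, adjusted 0.0459), that of Acta2 0.396 (p = 0.0685) and that of Des 0.328 (p = 0.101).

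Vim encodes vimentin, the intermediate filament of mesenchymal cells, endothelium and leukocytes. Its wild-type signals ran from 753.6 to 1930.3 at week 20 and from 935.3 to 2759.7 at week 48. Transgenic signals ran from 4734.6 to 7948.2 and from 4408.2 to 6554.4, so that neither age had an overlap. Vim rose by 2.14 ± 0.24 at week 20 (limma adjusted p = 4.39e-08) and by 1.87 ± 0.26 at week 48 (adjusted p = 2.79e-06). Its 3 probe sets gave 2.14, 2.47 and 2.11 at week 20. Leukocyte genes moved with it: 5 of 6 pan-leukocyte markers rose at week 20 and 6 of 6 at week 48. Their summed signal at week 20 was 3178.7 to 4575.7 on wild-type arrays against 8302.3 to 11472.4 on transgenic arrays, and at week 48 it was 3086.4 to 3832.6 against 7201.4 to 13330.2. Of 8 endothelial markers 2 rose at each age, with a summed signal at week 20 of 2934.6 to 4865.6 and 5484.4 to 6375.1. The part of these cells in the Vim signal was not tested.

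Cygb encodes cytoglobin, a haem protein of the globin family that in liver is found in stellate cells. It gave 216.9, 335.9, 179.6, 310.9 and 268.3 in wild-type liver at week 20 and 231.8, 291.2, 313.5 and 262.5 at week 48. Transgenic liver gave 1883.0, 1582.0, 1691.2, 1401.3 and 1711.0 at week 20 and 2264.5, 1738.6, 1026.7, 1452.4 and 1472.4 at week 48. The lowest transgenic array was above the highest wild-type array of its age by 1065.4 units at week 20 and by 713.2 at week 48. Cygb rose by 2.61 ± 0.21 (limma adjusted p = 4.97e-11) and by 2.43 ± 0.22 (adjusted p = 3.34e-09), the smallest adjusted p of the 9 markers at both ages. On the 2 transgenic arrays with other tissue it lay within the range of the others of their group.

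Reln encodes reelin, a secreted glycoprotein made in liver by stellate cells and in other tissues by lymphatic endothelium. At week 20 wild-type arrays gave 1230.9 to 3254.5 and transgenic arrays 4588.6 to 5974.0, and at week 48 they gave 2353.6 to 2727.0 and 4057.1 to 7175.7. The groups stayed apart at both ages, with a rise of 1.37 ± 0.23 (limma adjusted p = 3.31e-05) and of 1.01 ± 0.24 (adjusted p = 0.00261). Of 5 lymphatic endothelial genes tested, 1 rose at week 20 and 0 at week 48, with median changes of 0.58 and 0.34. The part of lymphatic endothelium in the Reln signal was not tested. A second Reln probe set, with a mean signal of 30.7, gave 0.58 at week 20 and did not pass.

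Hand2 encodes a basic helix-loop-helix factor of the mesenchyme in which stellate cells arise. At week 20 its signals were 362.3, 377.2, 183.8, 381.1 and 271.1 in wild-type and 1920.8, 1453.3, 1428.1, 2041.1 and 1511.8 in transgenic liver. At week 48 they were 244.9, 379.6, 240.8 and 140.6, and 1723.9, 1160.0, 590.7, 662.4 and 849.5. All transgenic arrays were above all wild-type arrays, and at week 48 only replicate 1 lay within the week 20 transgenic range. Hand2 rose by 2.38 ± 0.33 (limma adjusted p = 1.55e-06) at week 20 and by 1.89 ± 0.34 (adjusted p = 0.000152) at week 48. Of its other probe sets, one with a mean signal of 69.7 gave 2.43 at week 20 and one with a mean signal of 8.46 gave 0.17.

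Cdh11 encodes cadherin-11, an adhesion molecule between activated fibroblasts. Wild-type signals were 14.6, 11.5, 12, 30.7 and 22.3 at week 20 and 49.7, 2.3, 11.9 and 62.0 at week 48, all below the median probe set of any array. Transgenic signals were 315.2, 260.3, 209.3, 463.3 and 326.7 at week 20 and 169.6, 205.1, 131.7, 229.4 and 185.0 at week 48, with no overlap. Cdh11 rose by 3.26 ± 0.40 (limma adjusted p = 2.93e-07) and by 2.29 ± 0.43 (adjusted p = 0.000196). Because its wild-type signals are low, the size depends on the offset: the week 20 change was 4.09 with an offset of 1 and 2.18 with 64. Its second probe set, with a mean signal of 22.4, gave 0.49 and did not pass.

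Thy1 encodes a surface glycoprotein of portal fibroblasts and myofibroblasts that is also a T cell antigen. At week 20 wild-type arrays gave 85.4 to 115.6 and transgenic arrays 173.2 to 294.6. At week 48 they gave 58.2 to 157.7 and 113.7 to 266.3, overlapping through wild-type replicate 4, which has muscle transcripts. Thy1 rose by 1.12 ± 0.24 (limma adjusted p = 0.000695) and by 1.02 ± 0.25 (adjusted p = 0.00328). Of 5 T cell genes tested 2 rose at each age. The summed signal of 8 T cell genes on the array at week 20 was 368.1 to 563.3 on wild-type arrays against 509.5 to 1029.1 on transgenic arrays, and at week 48 it was 408.7 to 724.6 against 588.5 to 1178.9. The part of T cells in the Thy1 signal was not tested.

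At week 48, then, 6 of the 9 markers rose in transgenic liver, against 14.2% of all genes, and 5 of 9 were higher without overlap, against 13.9%. The median change was 1.14 for the markers and 0.04 for all genes. With all arrays each of the 9 changes was smaller than at week 20, while without the 5 arrays with other tissue those of Acta2 and Thy1 were larger, by 0.07 and 0.08. The difference between the ages passed for 0 of the 9, among 0.275% of all genes called, and also for 0 of 9 at an unadjusted p under 0.05. That difference was widest for Cdh11, at -0.96 ± 0.59 (limma adjusted p = 0.507). Within transgenic liver, week 48 against week 20 passed for 0 of 9 while 15.7% of all genes passed. The nearest was Hand2, at -0.83 ± 0.33 (adjusted p = 0.0793). Without the 5 arrays with other tissue Des was called lower with age, at -1.02 (limma adjusted p = 0.00299), among 13.6% of all genes called. In a fit of the 10 transgenic basal-diet arrays alone Hand2 (limma adjusted p = 0.0362) and Cdh11 (adjusted p = 0.0287) were lower. That fit called 2556 of 13099 genes in either direction. In wild-type liver 0 of 9 passed with age, against 6.88% of all genes, and 0 of 9 had an unadjusted p under 0.05.

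**Figure D3:**
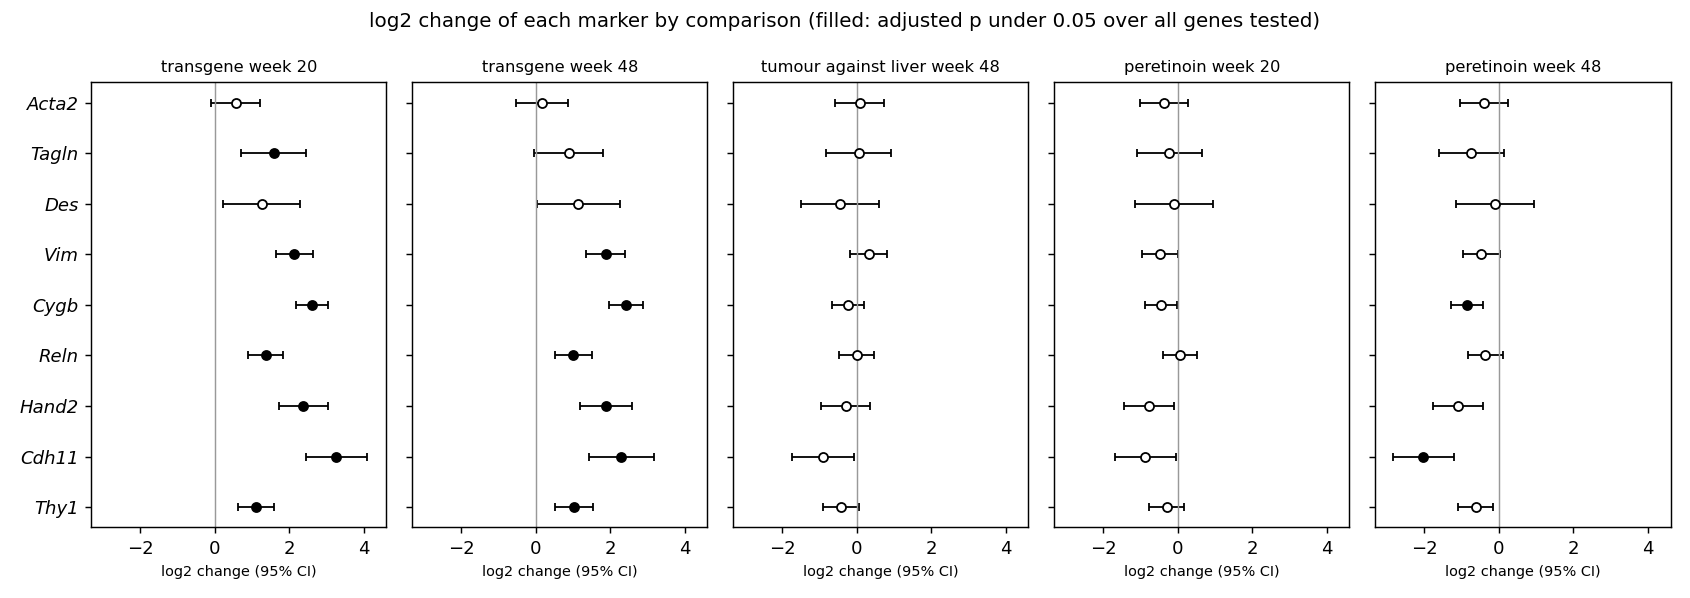
Change of each marker on the log2(signal + 16) scale in the 5 main comparisons, with 95% confidence intervals from the limma fit; filled points are called at an adjusted p under 0.05 over all genes. Filled points number 7 and 6 of 9 in the transgene comparisons, 0 for tumours, 0 for peretinoin at week 20 and 2 at week 48.

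Tumours were next set against non-tumour transgenic liver of the same age. No marker passed, nor did any of the 13099 genes (0% called by limma). An unadjusted p under 0.05 was reached by 1 of 9 markers and 8.21% of all genes. Median changes were -0.23 for the markers and 0.01 for all genes, and the 2 groups overlapped for all 9, while 1.02% of all genes were higher and 0.97% lower without overlap. Cdh11 had the widest spread, with tumour signals of 114.7, 31.4, 125.8, 218.1 and 47.8 and a change of -0.90 ± 0.40 (limma adjusted p = 0.555, 95% interval -1.73 to -0.08). Of the 5 tumours 4 were below every non-tumour liver. Vim ran from 6309.3 to 7846.6 in tumours, its highest group mean, with a change of 0.32 ± 0.24 (95% interval -0.17 to 0.81).

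For the contractile genes the intervals around the tumour difference were wide. Acta2 signals in the tumours were 734.0, 1031.5, 1066.7, 975.7 and 1197.3, a change of 0.08 with an interval of -0.57 to 0.73. Tagln signals were 454.9, 237.6, 383.1, 669.6 and 348.3, a change of 0.05 with an interval of -0.82 to 0.92. Des signals were 177.4, 220.3, 245.5, 286.2 and 221.4, a tighter group than the non-tumour livers, with a change of -0.44 that turned to 0.19 without the 5 arrays with other tissue. None of the 5 tumour arrays had muscle or acinar transcripts by the rule above.

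Against wild-type liver at week 48, 5 of 9 markers rose in tumours, with 17.9% of all genes called higher: Vim by 2.19, Cygb by 2.20, Hand2 by 1.59, Cdh11 by 1.39 and Reln by 1.01 on the log2 scale. Thy1, at 0.60 ± 0.25, did not pass (limma adjusted p = 0.0745). The Cdh11 call was lost in a fit of the arrays compared alone (limma adjusted p = 0.0799). Higher without overlap were 4 of 9, against 15.6% of all genes. Without the 5 arrays with other tissue, of which only wild-type replicate 4 is in this comparison, all 9 passed, including Acta2 at 0.80 (adjusted p = 0.0299), Tagln at 1.33 (adjusted p = 0.0148) and Des at 1.23 (adjusted p = 0.000134), among 26.4% of all genes called in either direction. Without that replicate alone 8 of the markers passed. This comparison shares its wild-type arrays with the transgene comparison.

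Peretinoin was compared with the basal diet within transgenic liver, and these comparisons share their basal-diet arrays with the transgene comparisons. At week 20, 0 of 9 markers passed (limma), against 2.89% of all genes, and 3 of 9 and 19.5% of all genes had an unadjusted p under 0.05. The estimates were below 0 for 8 of 9, with a median of -0.37 against -0.02 for all genes, and the groups overlapped for all 9, while 2.05% of all genes were higher and 2.96% lower without overlap. Hand2 on peretinoin split into 586.0, 480.7 and 732.9 on replicates 1 to 3 and 2116.3 and 1895.8 on replicates 4 and 5, the first 3 being below every basal-diet array. Its change was -0.76 ± 0.33 (limma adjusted p = 0.178), and -1.04 (adjusted p = 0.0507) without the arrays with other tissue, which include replicate 5. Cdh11, with 126.3, 81.5, 153.4, 205.0 and 310.6, had a change of -0.86 ± 0.40 (adjusted p = 0.229).

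The contractile genes at week 20 overlapped between the diets. On peretinoin Acta2 gave 930.4, 578.7, 736.2, 487.7 and 746.0, a change of -0.37 ± 0.32. Tagln gave 416.1, 271.2, 551.4, 712.7 and 469.4, a change of -0.22 ± 0.43 that turned to 0.11 without the 5 arrays. Des gave 333.4, 223.4, 336.3, 309.2 and 790.9, the last on the array with muscle transcripts, a change of -0.09 ± 0.51. Cygb ran from 970.8 to 1723.3 (-0.44 ± 0.21, limma adjusted p = 0.236), Vim from 2813.1 to 6058.0 (-0.47 ± 0.24, adjusted p = 0.279), Reln from 4327.1 to 10205.9 (0.06 ± 0.23) and Thy1 from 136.7 to 229.5 (-0.30 ± 0.24). Levels on peretinoin stayed above wild type at this age: 7 of 9 markers were called higher than in wild-type liver, against 12.2% of all genes, and 7 were higher without overlap, against 7.72%. Leaving out the 5 arrays with other tissue gave 8 of 9 calls, Des being the added one at 0.89 (adjusted p = 0.00372), among 14.7% of all genes called in either direction.

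At week 48, 2 of 9 markers were lower on peretinoin, Cdh11 and Cygb, against 0.573% of all genes called lower. Cdh11 gave 67.3, 3.5, 38.6, 49.0 and 32.7 on peretinoin and 169.6, 205.1, 131.7, 229.4 and 185.0 on the basal diet. Every peretinoin array was below every basal-diet array and below 71.5, the lowest array median. Cdh11 fell by 2.01 ± 0.40 on the log2 scale (limma adjusted p = 0.0122), a 4.03-fold difference. The size moved from -2.65 with an offset of 1 to -1.30 with 64, and the call was lost without peretinoin replicate 2, the lowest array (-1.68, adjusted p = 0.0629), and in a fit of the 10 arrays alone (adjusted p = 0.0716). It held without the arrays with other tissue, at -2.12 (adjusted p = 0.0179). A second probe set, with a mean signal of 22.4, gave -0.54 and did not pass.

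Cygb gave 706.9, 811.9, 1278.4, 765.4 and 800.7 on peretinoin at week 48 and 2264.5, 1738.6, 1026.7, 1452.4 and 1472.4 on the basal diet. Of the 5 peretinoin arrays 4 were below the lowest basal-diet array, replicate 3, and replicate 3 on peretinoin was above it. Cygb fell by 0.84 ± 0.21 (limma adjusted p = 0.0480). This call lay at the threshold: it was lost when transgenic replicate 1, 2, 4 or 5 or peretinoin replicate 1, 2, 4 or 5 was left out, with adjusted p between 0.0637 and 0.146, without the arrays with other tissue (-0.80, adjusted p = 0.157) and in the 10 arrays alone (adjusted p = 0.182). It was also lost with the replicate number as a block (adjusted p = 0.0516), an offset of 1 (0.0545), quantile normalisation (0.0570), median centring (0.0675) and no filter on low signals (0.0622). The sign stayed negative in all of these, and the call held with an offset of 64 (0.0397), with the upper 40% of probe sets (0.0448) and with the mean of the kept probe sets (0.0437).

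Hand2 at week 48 gave 300.1, 555.1, 507.0, 544.3 and 299.1 on peretinoin, all below the 590.7 of the lowest basal-diet array. With Cdh11 it was 1 of 2 markers lower without overlap, against 1.84% of all genes. Its change of -1.09 ± 0.33 did not pass (limma adjusted p = 0.106). The medians of the changes were -0.62 for the markers and -0.02 for all genes, and all 9 estimates were below 0. For Thy1 the change was -0.62 ± 0.24 (limma adjusted p = 0.219), for Vim -0.46 ± 0.24 (adjusted p = 0.396) and for Reln -0.35 ± 0.23 (adjusted p = 0.512).

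Of the contractile and filament genes on peretinoin at week 48, Acta2 gave 590.3, 903.7, 425.7, 1109.3 and 690.0, a change of -0.40 ± 0.32. Tagln gave 101.4, 310.3, 137.6, 558.4 and 218.7, a change of -0.73 ± 0.43. Des gave 1287.2, 201.1, 216.5, 173.0 and 216.3, the first on the array with muscle transcripts, a change of -0.09 ± 0.51. All 3 overlapped with the basal diet and did not pass. Without the 5 arrays with other tissue, Des ran from 173.0 to 216.5 on peretinoin and from 144.7 to 258.1 on the basal diet, with a change of 0.02. In that fit the change of Acta2 was -0.17 and that of Tagln -0.27.

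Against wild-type liver at week 48, 2 of 9 markers were called higher on peretinoin, with 11.2% of all genes: Vim by 1.41 ± 0.26 (limma adjusted p = 0.000256) and Cygb by 1.59 ± 0.22 (adjusted p = 9.64e-06). Without the 5 arrays with other tissue 3 of 9 passed, Des being the added one at 1.07 (limma adjusted p = 0.00205). In that fit 17% of all genes were called in either direction. Cygb was the 1 marker higher without overlap, against 7.95% of all genes. Reln was at 0.66 ± 0.24 (adjusted p = 0.0564), Hand2 at 0.80 ± 0.34 (adjusted p = 0.110) and Cdh11 at 0.28 ± 0.43 (adjusted p = 0.697). The difference of the peretinoin effect between week 48 and week 20 passed for 0 of 9 markers, among 0.679% of all genes called, and 0 of 9 had an unadjusted p under 0.05; for Cdh11 it was -1.15 ± 0.57 (adjusted p = 0.377).

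Ordered by mean log2 signal, both wild-type groups were lowest for Tagln, Des, Vim, Cygb, Reln, Hand2, Cdh11 and Thy1. For Acta2, wild-type liver at week 48 came above peretinoin-fed liver of both ages, with replicate 4 its highest array. Tagln, Des, Cygb, Hand2, Cdh11 and Thy1 were highest in transgenic liver at week 20, Acta2 and Vim in tumours, and Reln in peretinoin-fed liver at week 20, through 1 array of 10205.9. Peretinoin-fed liver at week 48 was the lowest of the 5 transgenic groups for Tagln, Vim, Cygb, Reln, Hand2, Cdh11 and Thy1. Of the 6 pairs of neighbours in each order, ranges were apart only for Cygb between wild-type and peretinoin-fed liver at week 48 and for Hand2 between peretinoin-fed liver at week 48 and tumours. All other neighbours overlapped.

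Single arrays of a group also showed which markers varied together, as Pearson's r of the deviations from the group means over the 34 arrays. These are descriptions over arrays that share their normalization, and no p is given. Cygb with Hand2 (0.651) and Reln with Hand2 (0.650) were the highest pairs, and Cygb with Reln reached 0.477. Acta2 went with Tagln (0.621) and Vim (0.592) and not with Cygb (0.00883) or Hand2 (-0.121). Des went with Thy1 (0.571), a pair at 0.35 without the 5 arrays, while Des with Cygb was at 0.098 and without them at 0.492. Over those 29 arrays Acta2 with Tagln was at 0.476, below Tagln with Hand2 (0.573 against 0.255 over all 34) and Tagln with Cdh11 (0.493 against 0.396), and Vim with Hand2 was at 0.548 against 0.365.

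**Figure D4:**
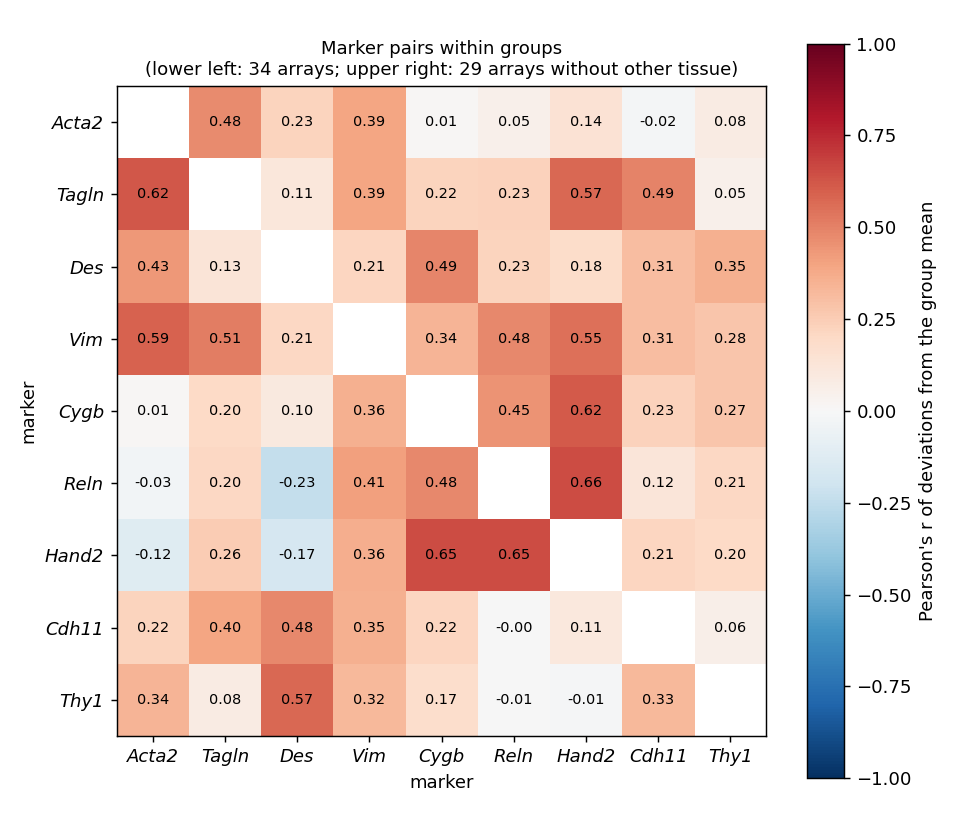
Pearson's r between markers of the deviations of log2(signal + 16) from the group means. The lower left is over 34 arrays and the upper right over the 29 left without the 5 arrays with muscle or pancreas transcripts. Acta2 with Tagln is at 0.621 and 0.476, and Tagln with Hand2 at 0.255 and 0.573.

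Genes most like each marker were taken by the same measure from 12444 named genes. For Acta2 they were Myl9 (r = 0.825), Actg2 (0.763), S100a6, a calcium-binding protein (0.747), Prss23 (0.701) and Ccn3 (0.701), and without the 5 arrays Myl9 stood at 0.731 and Actg2 at 0.501. For Tagln they were Myl9 (0.773), Stxbp6 (0.741), Tgfb3 (0.734), Fstl1 (0.711) and Borcs8 (0.709), with Myl9 at 0.795 without the 5 arrays. For Des they were the muscle genes Eno3 (muscle enolase, 0.943), Cox6a2 (0.930), Myoz1 (0.922) and Ldb3 (0.920) and the lactate dehydrogenase Ldhb (0.921). Without the 5 arrays these 5 fell to between 0.212 and 0.381.

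The other markers had other neighbours. Reln was most like Ntn1, a netrin (0.851), and Lhx2, a LIM homeobox factor of stellate cells (0.778), and these stayed at 0.885 and 0.780 without the 5 arrays. Hand2 was most like Gdf2, bone morphogenetic protein 9 (0.739), and Pdgfa (0.731). For Cdh11 the genes were Gdf10 (0.782) and Igfbp6 (0.734), for Vim Lpar4 (0.823) and Ccdc80 (0.816), for Cygb Scarf2 (0.702) and Ccdc68 (0.700), and for Thy1 Spn, a leukocyte sialoglycoprotein (0.771), and Tspan13 (0.734).

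Genes of the quiescent stellate cell did not move one way. Of 15 listed, 13 were tested; at week 20 in transgenic liver 3 rose and 2 fell, and at week 48 5 rose and 2 fell, with a median change of 0.01 and 0.44. Bambi, a decoy receptor for transforming growth factor beta, rose by 1.70 (limma adjusted p = 1.35e-07), and Ank3, an ankyrin, by 1.10 (adjusted p = 1.08e-05). The secreted collectin Colec10 fell by 3.51 (adjusted p = 4.99e-07) and Angptl6 by 1.48 (adjusted p = 2.15e-05). Lrat, which makes the stored retinyl esters, changed by 0.46 at week 20 (adjusted p = 0.216) and rose by 1.33 at week 48 (adjusted p = 0.000878). Peretinoin at week 20 left 0 of 13 called and at week 48 1 of 13, Bambi, which fell by 1.22 (adjusted p = 0.00280). None of the 13 passed in tumours against liver.

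Smooth muscle contractile genes rose in part. Of 17 listed, 12 were tested, 5 rose in transgenic liver at week 20 and 3 at week 48, and 0 fell. The largest was Smtn, smoothelin, at 2.0 (limma adjusted p = 1.06e-05), followed by Flna, filamin A, at 1.76 (adjusted p = 6.02e-07), Myl9 at 1.22 (adjusted p = 0.0200), Mylk, the myosin light chain kinase, at 1.08 (adjusted p = 2.64e-06) and Actn1, an alpha-actinin, at 0.51 (adjusted p = 0.00260). Myh11 at 0.12 and Actg2 at -0.20 were among the 7 that did not pass at week 20. On peretinoin 1 of 12 was called at week 20, Cald1, caldesmon, higher by 0.35 (adjusted p = 0.0259), and 0 of 12 at week 48.

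Portal fibroblast genes were higher at both ages in 4 of the 6 tested of 11 listed. At week 20 Cd34, also an endothelial antigen, rose by 3.60 (limma adjusted p = 1.47e-09), Dpt, dermatopontin, by 2.23 (adjusted p = 0.000404), Eln, elastin, by 1.45 (adjusted p = 3.03e-06) and Fbln2, fibulin 2, by 1.39 (adjusted p = 1.86e-07). On peretinoin 0 of 6 were called at week 20 and 1 at week 48, Dpt, with a change of -2.61 (adjusted p = 0.00280). Hepatocyte genes went the other way, 4 of 8 tested being lower in transgenic liver at each age and 0 of 8 called with peretinoin. Of 5 mesothelial genes tested 1 rose in transgenic liver at each age, and of 5 bile duct genes, 20 skeletal muscle genes and 10 acinar genes 0 did. With peretinoin at week 48, where Cdh11 and Cygb were lower, 1 of 5 T cell genes was lower, against 0.573% of all genes. Of 6 pan-leukocyte, 8 endothelial and 5 mesothelial genes 0 were called. With so few genes called at all, these counts do not show that the cells stayed level. Median changes of the T cell, pan-leukocyte, endothelial and mesothelial genes were -0.49, -0.54, -0.15 and -0.98, against -0.62 for the markers. The summed signal of the T cell genes was 471.8 to 705.9 on peretinoin and 588.5 to 1178.9 on the basal diet. For the pan-leukocyte genes it was 3706.1 to 9607.3 and 7201.4 to 13330.2. For the mesothelial genes it was 214.8 to 547.2 and 367.7 to 825.6. The part of these cell types in the Cdh11 and Cygb differences was not tested.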

How the data were processed

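RNA of 34 liver or tumour samples was hybridised to Affymetrix Mouse Genome arrays, 1 array per sample. The deposited signal intensities are on a linear scale. Per the submitters' processing notes they come from MAS5, without a version. The 2% trimmed mean of every array was 500.003 to 500.004, and every value was above 0. The number of arrays limits the precision.

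Intensities were taken as log2(signal + 16). The 60% of probe sets with the highest mean signal, controls left out, were kept, and a gene was read through its probe set with only that symbol and the highest mean, from the platform annotation, which paired 34945 of 45101 probe sets with 1 symbol. The 7 groups were fitted together in R 4.3.3 by limma 3.58.1, using lmFit and a trended eBayes, and p-values were adjusted by Benjamini-Hochberg within each comparison, two-sided. SDs are of signals and SEs are moderated. The code was tested on simulated data. The 9 markers and the gene lists were chosen with earlier results of these data known. From each list the text names the genes of smallest p at week 20 in transgenic liver and those a sentence needs, and genes like a marker by Pearson's r. Alternatives covered the offset, normalization, filter, probe set, replicate numbers, arrays in the fit, and leaving out each array. The highest correlation between 2 arrays was 0.982. Replicate numbers were not taken to pair samples. Of 99 same-numbered pairs of samples, 24 had deviations from the group means correlated over 0.1. Among them were 4 of the 5 pairs of a tumour and a transgenic liver of week 48, whose r ran from 0.0771 to 0.29, and whether these share a mouse is not known here.

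Promoter windows came from a RefSeq table on GRCm38.p6, matched by symbol.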

Additional observations from a re-analysis of the deposited data

Results flagged for a closer look

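In 4 of 63 marker and group combinations, the highest or lowest array lay apart from the others by Dixon's test, where chance gives about 1 in 20. Des had 2 of them: a signal of 1886.8 on transgenic week 48 replicate 4 and of 1287.2 on peretinoin week 48 replicate 1. The gap took 0.784 and 0.893 of the group's range, and the mean of the skeletal muscle list on these arrays exceeded the median over arrays by 7.24 and 7.06 log2 units. Reln was lowest on the second of these arrays, at 2726.4 (0.770 of the range). Cygb was highest on peretinoin week 48 replicate 3, at 1278.4 (0.767 of the range), an array with neither muscle nor acinar transcripts.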

How the results depend on the processing

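The number of members called stayed within 1.5 times in all alternatives for the transgene comparisons (6 to 9 of 9 at week 20, 5 to 7 at week 48) and at 0 for tumours against liver and for peretinoin at week 20. For peretinoin at week 48 the members called fell from 2 to 1 with an offset of 1, quantile normalisation, median centring, no filter, the upper 40% of probe sets (where Cdh11 was not kept), the replicate block and without the arrays with other tissue, to 0 with only the arrays compared, and ran from 0 to 2 when 1 array was left out. Members higher on peretinoin than in wild type at week 48 went from 2 to 4 with median centring. Over all 13099 genes, those called higher in this comparison went from 1466 to 2918 with it. Members changed with age in transgenic liver went from 0 to 2 with only the arrays compared, to 1 without the arrays with other tissue, and from 0 to 1 when 1 array was left out, the 1 being without transgenic week 48 replicate 1. All genes called with age numbered 2063 in the main fit, 2556 with only the arrays compared and 1788 without the arrays with other tissue. For tumours against wild type, members called were 5 in the main fit and ran from 4 to 9 over the alternatives. The 9 came without the arrays with other tissue. When 1 array was left out they ran from 4 to 8. The replicate block changed no other call of a member in the 5 main comparisons. Of the tumours 4 of 5 correlated best with the liver of their own number and 4 of 5 livers with their own tumour, a hint from the data and not the design, so a replicate block of these 10 arrays alone was added after seeing the data: 0 of 9 members were called (lowest limma adjusted p 0.192), 2 had an unadjusted p under 0.05, as did 13.2% of all genes, and 16 genes were called.

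Signs turned for uncalled changes. With median centring Reln in tumours was -0.0054 and Des on peretinoin at week 48 was 0.0056. Without the arrays with other tissue Reln in tumours was -0.0861, Des in tumours 0.19, Des on peretinoin at week 48 0.0246 and Tagln on peretinoin at week 20 0.11. Other probe sets gave -0.26 for Acta2 at week 20, -0.21 in tumours and 0.0791 on peretinoin at week 48, and on peretinoin at week 20 -1.25 for Reln, 0.0862 for Hand2 and 0.13 for Cdh11, which was 0.0637 in tumours. Leaving out 1 array gave -0.0969 to 0.72 for Acta2 in transgenic liver at week 48. In tumours it gave -0.0661 to 0.29 for Acta2, -0.17 to 0.28 for Tagln, -0.70 to 0.19 for Des and -0.11 to 0.12 for Reln. On peretinoin at week 20 it gave -0.44 to 0.11 for Tagln, -0.36 to 0.0737 for Des and -0.15 to 0.16 for Reln, and at week 48 -0.61 to 0.54 for Des. The cause was not tested.

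Median centring moved the median change of all genes at week 20 from 0.06 to -0.07 and the share of called genes that were higher from 66.8% to 46.7% (54.7% with quantile normalisation). At week 48 that share moved from 68.3% to 84.5%, and for peretinoin from 56.9% to 44.8% at week 20 and from 21.1% to 38.2% at week 48.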
